A study of Homo sapiens with 6 samples.

Results

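The nuclear genes of the respiratory chain and ATP synthase were followed in HCCLM3 cells, a human hepatocellular carcinoma line, transfected with an antisense oligonucleotide (ASO) to SCARNA13 or with a control ASO. Members were all protein-coding genes outside the mitochondrial genome whose symbols begin with NDUF, SDHA, SDHB, SDHC, SDHD, UQCR, COX or ATP5. This rule gave 111 entries of the 58302 genes listed, under 110 symbols, since SDHD is listed under 2 identifiers. The groups were 3 SCARNA13 ASO libraries and 3 Control ASO libraries, and the comparison asked which genes lie downstream of SCARNA13. SCARNA13 is a small Cajal body-specific RNA, one of the RNAs that guide chemical marks onto spliceosomal RNAs, and ASOs are short synthetic strands used to lower the RNA they pair with. Of the members, 92 had a mean of at least 1 FPKM (fragments per kilobase of gene length and of library size) over the 6 libraries and were tested, together with all 10120 genes above that level.

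The respiratory chain carries electrons from NADH, through complex I, and from succinate, through complex II, by way of coenzyme Q, complex III and cytochrome c to complex IV, which reduces oxygen. Complexes I, III and IV pump protons across the inner mitochondrial membrane, and ATP synthase, also called complex V, lets them flow back to make ATP. Most subunits are nuclear-encoded and imported, while a few core subunits of complexes I, III, IV and V come from mitochondrial DNA, and dedicated assembly factors insert cofactors and join the parts. Hepatocytes are rich in mitochondria, and liver tumour cells vary in how far they rely on respiration.

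Of the members, 5 passed an adjusted p of 0.05 in the fit with a replicate block and GC correction described below. The 250 bases before the RefSeq transcription start of each (build GRCh38.p14), written 5′ to 3′ on the strand of the gene, are shown because these are the members that the test singled out. They lie at chr17:75046970-75047219 (minus strand) for ATP5H, chr11:67606686-67606935 (plus strand) for NDUFV1, chr2:201071751-201072000 (plus strand) for NDUFB3, chr5:53560389-53560638 (plus strand) for NDUFS4 and chr5:1801157-1801406 (plus strand) for NDUFS6. Capitals mark a match, on either strand, to the ETS family motif CCGGAAGT in ATP5H and to the NRF1 core motif GCGCATGC in NDUFS6.
ATP5H: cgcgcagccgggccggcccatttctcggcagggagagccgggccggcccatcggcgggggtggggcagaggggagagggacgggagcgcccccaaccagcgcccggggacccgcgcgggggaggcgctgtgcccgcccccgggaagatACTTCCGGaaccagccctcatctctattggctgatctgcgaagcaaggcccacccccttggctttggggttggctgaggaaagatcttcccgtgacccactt
NDUFV1: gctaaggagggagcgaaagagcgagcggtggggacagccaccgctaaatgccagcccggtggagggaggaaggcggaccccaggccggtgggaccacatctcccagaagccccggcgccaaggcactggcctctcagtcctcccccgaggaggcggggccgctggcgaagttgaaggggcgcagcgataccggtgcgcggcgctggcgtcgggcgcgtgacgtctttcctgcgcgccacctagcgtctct
NDUFB3: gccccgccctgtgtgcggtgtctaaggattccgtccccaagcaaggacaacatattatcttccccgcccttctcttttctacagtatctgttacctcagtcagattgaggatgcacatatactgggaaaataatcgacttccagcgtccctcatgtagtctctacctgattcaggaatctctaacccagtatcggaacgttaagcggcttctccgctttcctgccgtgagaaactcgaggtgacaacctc
NDUFS4: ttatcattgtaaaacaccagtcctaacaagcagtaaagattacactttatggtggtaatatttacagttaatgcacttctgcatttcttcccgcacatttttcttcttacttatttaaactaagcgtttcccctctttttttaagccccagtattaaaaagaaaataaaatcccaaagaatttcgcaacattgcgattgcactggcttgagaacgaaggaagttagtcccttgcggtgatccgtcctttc
NDUFS6: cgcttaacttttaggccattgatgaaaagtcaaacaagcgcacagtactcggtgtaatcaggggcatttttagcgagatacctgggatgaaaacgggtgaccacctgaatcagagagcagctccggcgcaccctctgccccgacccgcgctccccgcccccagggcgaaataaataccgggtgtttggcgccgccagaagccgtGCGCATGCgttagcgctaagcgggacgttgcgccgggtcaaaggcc

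These stretches differed in base composition. GC made up 70.8% of the ATP5H stretch, 70.4% of that of NDUFV1, 58.8% of that of NDUFS6, 50% of that of NDUFB3 and 36.8% of that of NDUFS4. Matches to a searched motif in them were the ETS match of ATP5H and the NRF1 match of NDUFS6, while NDUFS4 had a YY1 match in the 50 bases after its start. The NDUFB3 stretch lies inside the gene span listed with its FPKM, which starts at chr2:201071433. Bases before that start were not searched. Motifs known from respiratory gene promoters were searched on both strands of the 300 bases from 250 before to 50 after the RefSeq start, in the 87 members matched by symbol. The ETS family motif CCGGAAGT was present in 13 members (14.9%), against 9.61% of 7565 promoters of tested genes and 4.44% of all 27305 promoters. The YY1 motif AAGATGGC was present in 12 members (13.8%), against 6.05% of tested genes and 3.03% of all promoters. The NRF1 core GCGCATGC was present in 18 members (20.7%), against 5.83% of tested genes and 3.27% of all promoters. These 87 include untested members. In the 76 tested members with a promoter, the ETS family, YY1 and NRF1 motifs were present in 13, 11 and 16. All 3 motifs were thus more frequent among the members than among the promoters of tested genes, and a match marks letters in a window and no binding.

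The libraries held between 20457474 and 25173559 recovered reads. SCARNA13 itself was covered by 2, 3 and 2 reads in SCARNA13 ASO libraries and 6, 5 and 2 reads in Control ASO libraries. Its values of 0.268, 0.383 and 0.468 FPKM in SCARNA13 ASO libraries lay below the 0.717, 0.683 and 0.556 FPKM in Control ASO libraries, which an exact two-sided permutation test gives p = 0.1, the smallest that 3 against 3 can give. In replicate 3 both groups held 2 reads, on 20457474 recovered reads with SCARNA13 ASO and 20663908 with Control ASO. Their FPKM differ only through the implied library sizes, 15550655 and 13089653. The separation of the groups, and with it this p-value, thus rests on that scaling. SNHG10, whose gene span on the same strand contains SCARNA13, was also lower in SCARNA13 ASO cells in 3 of 3 same-numbered pairs. With block and GC correction its log2 fold change was -0.40 ± 0.08 (SE) and did not pass (limma adjusted p = 0.053). Effects of the 2 transcripts cannot be told apart here. Nothing in the labels ties the libraries to separate cultures, and the p-values thus reflect the spread between libraries alone, which may be technical. In bulk RNA, fewer cells with a transcript and less of it per cell cannot be told apart. Of the 8 hepatocyte markers, SERPINA1 averaged 1.87 FPKM in SCARNA13 ASO cells and 2.25 FPKM in Control ASO cells, and the other 7, ALB and APOB at 0 among them, averaged at most 0.168 FPKM. Of the 5 epithelial markers, the 3 keratins KRT8, KRT18 and KRT19 had group means between 519 and 1574 FPKM. The other 2 were under the 1 FPKM floor, EPCAM and CDH1, with CDH1 listed at 0. Summed levels of the 4 endothelial markers lay between 0.0433 and 0.0703 FPKM in SCARNA13 ASO libraries and between 0.0554 and 0.106 FPKM in Control ASO libraries. The 5 fibroblast markers summed to between 1.30 and 1.63 FPKM in SCARNA13 ASO libraries and between 0.929 and 1.57 FPKM in Control ASO libraries, mostly PDGFRB. The 5 immune markers summed to between 2.25 and 3.27 FPKM in SCARNA13 ASO libraries and between 2.87 and 6.85 FPKM in Control ASO libraries, mostly CD14, with CD3E at 0.

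Replicate 3 of both groups stood apart from replicates 1 and 2, and it did so strongly over these genes. Set against the mean of replicates 1 and 2 of its group, replicate 3 differed by more than 2-fold for 23 of the 92 tested members in the SCARNA13 ASO group and for 33 in the Control ASO group. Between replicates 1 and 2 no member differed that much in either group. The shift followed the GC content of the transcript, with a Pearson r over the 92 members of 0.77 in the SCARNA13 ASO group and 0.74 in the Control ASO group. This is a description across genes that share the same libraries. The 10 members richest in GC shifted by a median of 1.40 on the log2 scale in SCARNA13 ASO replicate 3 and 1.81 in Control ASO replicate 3, and the 10 poorest by -0.16 and -0.31. NDUFB7, at 65.0% GC the richest of the tested members, shifted most, by 1.65 in the SCARNA13 ASO group and 2.08 in the Control ASO group. At the other end, UQCRB shifted by -1.30 in SCARNA13 ASO replicate 3, and NDUFB3 by -1.52 in Control ASO replicate 3.

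**Figure D1:**
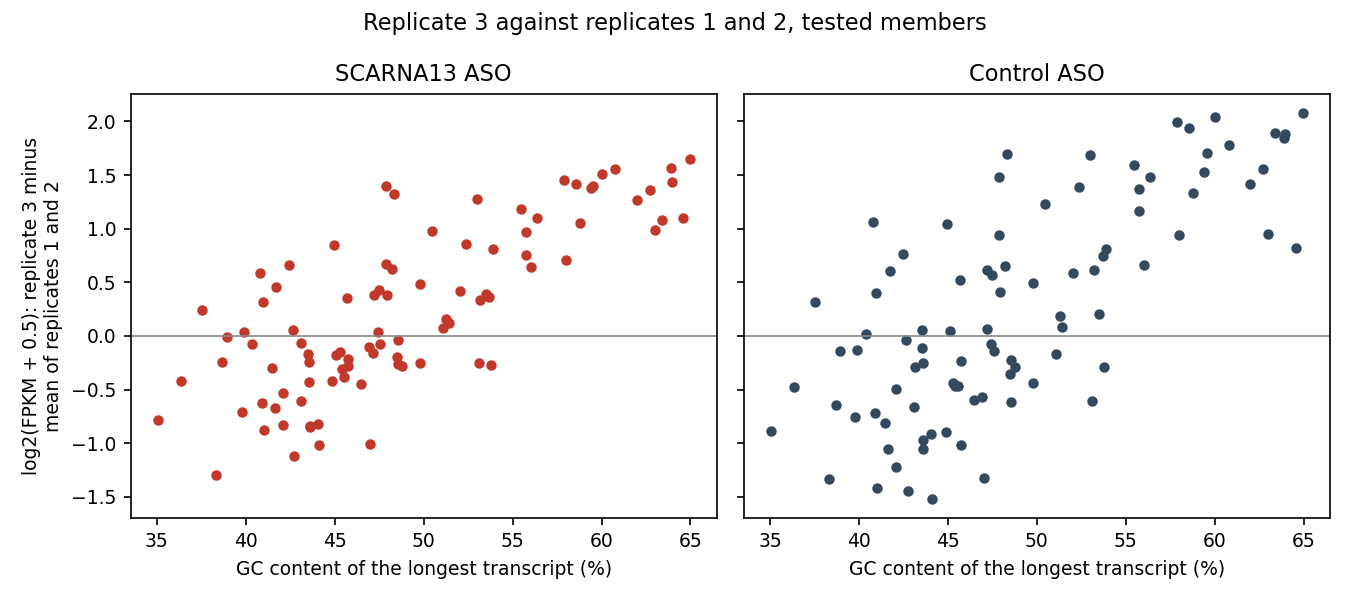
Shift of replicate 3 from the mean of replicates 1 and 2, on the log2(FPKM + 0.5) scale, against the GC content of each gene's longest transcript in percent, for SCARNA13 ASO (left) and Control ASO (right). Each point is 1 of the 92 tested members. Points climb with GC content in both panels, from below 0 among most GC-poor members to between about 1 and 2 at the GC-rich end.

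Because of this shift, 2 fits are given. The fit without a block (limma on log2(FPKM + 0.5)) called 0 of the 10120 genes and 0 of the 92 members at an adjusted p under 0.05, a background of 0%. At an unadjusted p under 0.05 it held 173 genes and 1 member, ATP5H, and limma-voom on the recovered reads without a block also called none. The fit with the replicate number as a block and a correction for GC content called 526 of 10104 genes, a background of 5.21%, of which 309 (3.06%) rose and 217 (2.15%) fell. It called 5 of the 92 members (5.43%), all as rises. That share lies near the background, so it is not a result about these genes as a group. At an unadjusted p under 0.05 in the same fit, 17 members were higher and 9 lower in SCARNA13 ASO cells. Those 26 are 28.3% of the tested members, against 3167 of 10104 genes (31.3%), of which 15.8% of all were higher and 15.5% lower, so an unadjusted p under 0.05 was common in this fit. The members' median log2 fold change was 0.04 with block and GC correction, beside 0.00 over all tested genes, and 0.03 without a block, beside -0.02. Altogether 53 members were above 0 and 39 below, and the SD of their log2 fold changes was 0.24, against 0.27 over all genes. With the block and no GC correction, no gene passed, and 2598 genes had an unadjusted p under 0.05.

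Counted pair by pair, 28 of the 92 tested members (30.4%) were higher in SCARNA13 ASO cells in 3 of 3 same-numbered pairs, against 23.9% of all tested genes. Another 29 members (31.5%) were lower in 3 of 3 pairs, against 29.6%. Groups did not overlap for 5 members that were higher in SCARNA13 ASO cells, against a background of 4%, and for 4 that were lower, against 4.44%. The higher ones were ATP5H, NDUFAF2, NDUFAF1, NDUFB1 and COX7C, and the lower ones NDUFAB1, NDUFC1, UQCRFS1 and NDUFA4. These were named after their values were seen. Overlap was read on the deposited FPKM, which rest on implied library sizes. In replicate 3 these sizes were 0.76 (SCARNA13 ASO) and 0.63 (Control ASO) times the recovered reads, against between 1.21 and 1.24 times in the other libraries. The separations of these members depend on that scaling, and overlap after scaling to recovered reads was not counted. As a share of all reads, the 111 members took 1.18%, 1.18% and 1.14% in SCARNA13 ASO libraries, against 1.17%, 1.16% and 1.11% in Control ASO libraries, so that the ranges of the groups overlapped.

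The largest rise was that of ATP5H (ENSG00000167863, chr17:75038863-75046985, minus strand, GRCh38), which encodes subunit d of the peripheral stalk of ATP synthase, the part that holds the catalytic head still while the ring turns. Its level was 19.3, 21.2 and 15.0 FPKM in SCARNA13 ASO libraries, against 12.1, 9.98 and 5.65 FPKM in Control ASO libraries. In the deposited FPKM every SCARNA13 ASO library lay above every Control ASO library, a separation that depends on the library scaling. Replicate 3 was the lowest of its group in both. The mean was 18.5 ± 3.19 FPKM in SCARNA13 ASO cells and 9.23 ± 3.27 FPKM in Control ASO cells (SD, n = 3 each). With block and GC correction the log2 fold change was 1.01 ± 0.12 (SE, 2.01-fold, limma adjusted p = 0.037), and without a block it was 1.02 ± 0.32 (adjusted p = 1.00). The values rest on 4407 reads in SCARNA13 ASO libraries and 2283 reads in Control ASO libraries. Exons of other genes cover 19.1% of the exonic bases of ATP5H, all on the opposite strand. Whether reads were counted by strand is not stated in the labels. The neighbour with most of that overlap, KCTD2, had a log2 fold change of -0.13 ± 0.07 (adjusted p = 0.26). Over every setting run, the log2 fold change of ATP5H stayed between 0.72 and 1.23.

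**Figure D2:**
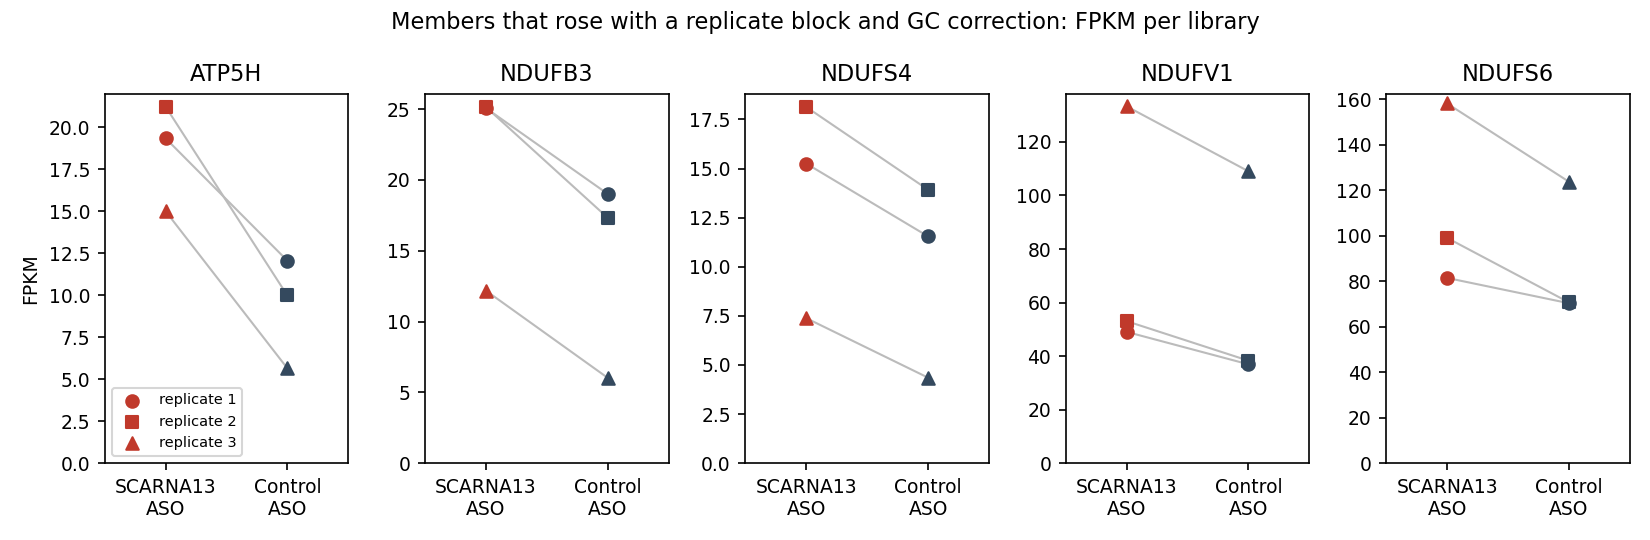
FPKM per library of the 5 members that rose with a replicate block and GC correction, SCARNA13 ASO on the left of each panel and Control ASO on the right, with lines joining libraries of the same replicate number. All 15 lines fall from SCARNA13 ASO to Control ASO. Only for ATP5H does the lowest SCARNA13 ASO library, at 15.0 FPKM, lie above the highest Control ASO library, at 12.1 FPKM. This separation depends on the library scaling.

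The other 4 members that passed belong to complex I. NDUFV1 (ENSG00000167792, chr11:67606852-67612535, plus strand) encodes the core subunit that binds NADH and takes up its electrons. Its level was 49.0, 53.0 and 133 FPKM in SCARNA13 ASO libraries, against 36.9, 38.3 and 109 FPKM in Control ASO libraries. Each SCARNA13 ASO library was above the Control ASO library of the same number, while the groups overlapped because both replicate 3 libraries were high. The log2 fold change was 0.45 ± 0.05 with block and GC correction (1.37-fold, limma adjusted p = 0.036) and 0.39 ± 0.59 without a block (adjusted p = 1.00). Leaving SCARNA13 ASO replicate 3 out of the fit without a block turned its sign, to -0.07. Exons of other genes on the same strand cover 8.36% of its exonic bases, and other genes share 17.6% of the 50-base words of its longest coding transcript.

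NDUFB3 (ENSG00000119013, chr2:201071433-201085750, plus strand) encodes an accessory subunit of the membrane arm. Its level was 25.1, 25.2 and 12.2 FPKM in SCARNA13 ASO libraries, against 19.0, 17.3 and 6.03 FPKM in Control ASO libraries. Here both replicate 3 libraries were low, and the low SCARNA13 ASO replicate 3 made the groups overlap. The log2 fold change was 0.62 ± 0.10 with block and GC correction (1.53-fold, limma adjusted p = 0.046) and 0.62 ± 0.52 without a block (adjusted p = 1.00). FAM126B on the opposite strand overlaps 19.8% of its exonic bases, at a mean level of 0.334 FPKM in SCARNA13 ASO cells and 0.349 FPKM in Control ASO cells.

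NDUFS4 (ENSG00000164258, chr5:53560633-53683340, plus strand) encodes an accessory subunit next to the NADH-binding part, needed for a stable complex and mutated in Leigh syndrome. Its level was 15.3, 18.1 and 7.38 FPKM in SCARNA13 ASO libraries, against 11.5, 13.9 and 4.35 FPKM in Control ASO libraries. Again all 3 pairs were higher in SCARNA13 ASO cells and both replicate 3 libraries were the lowest of their groups. The log2 fold change was 0.47 ± 0.07 with block and GC correction (1.39-fold, limma adjusted p = 0.040) and 0.49 ± 0.52 without a block (adjusted p = 1.00).

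NDUFS6 (ENSG00000145494, chr5:1801400-1816605, plus strand) encodes a zinc-binding accessory subunit of the same region. Its level was 81.5, 99.1 and 158 FPKM in SCARNA13 ASO libraries, against 70.3, 70.7 and 124 FPKM in Control ASO libraries. The replicate 3 libraries were high, as for NDUFV1, and the groups overlapped. The log2 fold change was 0.40 ± 0.07 with block and GC correction (1.32-fold, limma adjusted p = 0.048) and 0.35 ± 0.38 without a block (adjusted p = 1.00). No exon of another gene overlaps those of NDUFS4 or NDUFS6.

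These calls depended on the libraries used. With block and GC correction, leaving out replicate 3 of both groups left 4 of the 5, all but NDUFS6, leaving out replicate 1 left only ATP5H, and leaving out replicate 2 left none, with 0 of 10104 genes called by limma and 2065 at an unadjusted p under 0.05. In replicates 1 and 2 alone without a block or GC correction, 922 of 10120 genes passed (9.11%), among them 8 members (8.70%). Of these ATP5H, NDUFB3, NDUFV1, NDUFAF2 and NDUFA4L2 rose, against 4.52% of all genes, and NDUFAB1, NDUFB9 and SDHAF2 fell, against 4.59%. A limma-voom fit on the recovered reads with the block, added after seeing the data, passed 1023 genes (10.1%) and 10 members (10.9%), among them all 5 of the above. It called 8 members as rises, against 4.92% of all genes, and NDUFB9 and SDHAF2 as falls, against 5.19%.

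Complex I was represented by 46 members, of which 41 were tested, in 3 classes. The 6 tested core subunits carry the flavin and iron-sulfur clusters. Among them NDUFV1 rose and none fell, against 3.06% and 2.15% of all genes, and the median log2 fold change was -0.07. The lowest value of that class was -0.17 ± 0.07 for NDUFS3 (adjusted p = 0.19), at 25.8, 26.2 and 44.1 FPKM in SCARNA13 ASO libraries and 28.9, 26.8 and 62.9 FPKM in Control ASO libraries. Among the 29 tested accessory subunits, 3 rose and none fell with block and GC correction, against 3.06% and 2.15% of all genes. Their median was 0.07, with 19 above 0 and 10 below, beside 50.1% of all genes above 0. The lowest accessory value was that of NDUFB9, a membrane arm subunit, which had 45.7, 48.6 and 60.4 FPKM in SCARNA13 ASO libraries, against 56.1, 56.3 and 80.9 FPKM in Control ASO libraries. It was lower in all 3 pairs, while SCARNA13 ASO replicate 3 lay above the lower Control ASO libraries, and its log2 fold change of -0.31 ± 0.07 did not pass with block and GC correction (adjusted p = 0.068). It passed as a fall in replicates 1 and 2 alone (-0.25, adjusted p = 0.044) and with limma-voom and the block (-0.31, adjusted p = 0.041). NDUFB7, the most abundant accessory gene per length at 333 ± 241 FPKM in SCARNA13 ASO cells and 387 ± 347 FPKM in Control ASO cells (SD, n = 3 each), had a log2 fold change of 0.00 ± 0.08.

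None of the 6 tested complex I assembly factors passed with block and GC correction. At an unadjusted p under 0.05, 3 were higher and 0 lower, against 15.8% of all genes higher and 15.5% lower. With limma-voom and the block, NDUFAF2 passed. NDUFAF2 assists a late step of complex I assembly and had 36.5, 38.9 and 31.0 FPKM in SCARNA13 ASO libraries, against 30.4, 27.7 and 14.05 FPKM in Control ASO libraries. In the deposited FPKM the groups did not overlap, a separation that depends on the library scaling. The log2 fold change of NDUFAF2 was 0.61 ± 0.15 (adjusted p = 0.075). A processed pseudogene shares 36.3% of the 50-base words of its longest coding transcript, so reads may be split between them. NDUFAF8 was the most abundant factor of the class at 123 ± 53.1 FPKM in SCARNA13 ASO cells and 104 ± 43.1 FPKM in Control ASO cells (SD, n = 3 each). NDUFAF4 had the lowest log2 fold change of the class, -0.13 ± 0.08 (adjusted p = 0.31).

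Complex II, the succinate dehydrogenase that also serves the citric acid cycle, has 4 subunits, all nuclear-encoded, and none of them passed. At an unadjusted p under 0.05 none was higher or lower either, and none passed with limma-voom and the block. SDHA, the flavoprotein that oxidizes succinate, averaged 19.5 ± 4.08 FPKM in SCARNA13 ASO cells and 21.4 ± 4.50 FPKM in Control ASO cells. SDHB, the iron-sulfur subunit, averaged 31.5 ± 3.27 FPKM in SCARNA13 ASO cells and 28.2 ± 6.48 FPKM in Control ASO cells. The membrane anchors SDHC and SDHD averaged 6.0 ± 0.15 and 8.70 ± 2.92 FPKM in SCARNA13 ASO cells and 5.91 ± 0.34 and 8.12 ± 3.93 FPKM in Control ASO cells (SD, n = 3 each). Their log2 fold changes lay between -0.11 ± 0.05 for SDHA and 0.19 ± 0.08 for SDHB. The second identifier listed as SDHD held 1 read in all, and other genes, among them the pseudogene SDHAP3, share 22.3% of the 50-base words of SDHA.

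The complex II assembly factors held the members furthest below 0. SDHAF2, needed to attach FAD to SDHA, had 4.02, 3.83 and 5.26 FPKM in SCARNA13 ASO libraries, against 5.07, 5.30 and 8.19 FPKM in Control ASO libraries. All 3 pairs were lower in SCARNA13 ASO cells, though SCARNA13 ASO replicate 3 lay within the Control ASO range. Its log2 fold change of -0.44 ± 0.09 did not pass with block and GC correction (adjusted p = 0.057) and passed in replicates 1 and 2 alone (-0.36, adjusted p = 0.035) and with limma-voom and the block (-0.47, adjusted p = 0.034). An overlapping coding gene shares 34.6% of its 50-base words. SDHAF1, which helps insert iron-sulfur clusters into SDHB, had 9.60, 12.2 and 23.4 FPKM in SCARNA13 ASO libraries, against 11.9, 13.7 and 48.8 FPKM in Control ASO libraries. Both groups reached their top in replicate 3 and overlapped, and the log2 fold change was -0.43 ± 0.12 (adjusted p = 0.091). SDHAF3, an assembly factor for the same clusters, had the highest value of the 4 factors tested, 0.26 ± 0.08 (adjusted p = 0.10).

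None of the 9 complex III members passed, with a median log2 fold change of -0.06, 4 above 0 and 5 below. At an unadjusted p under 0.05, 2 were lower and 0 higher, against 15.5% of all genes lower and 15.8% higher. Limma-voom with the block called none. UQCRFS1, the Rieske iron-sulfur protein that hands electrons on towards cytochrome c, had 37.7, 34.5 and 31.9 FPKM in SCARNA13 ASO libraries, against 41.5, 38.6 and 41.3 FPKM in Control ASO libraries. In the deposited FPKM every SCARNA13 ASO library lay below every Control ASO library, a separation that depends on the library scaling. The log2 fold change was -0.23 ± 0.08 (adjusted p = 0.13). UQCRQ was the most abundant of the complex at 202 ± 86.1 FPKM in SCARNA13 ASO cells and 206 ± 111 FPKM in Control ASO cells. The hinge protein gene UQCRH averaged 120 ± 11.9 FPKM in SCARNA13 ASO cells and 112 ± 18.6 FPKM in Control ASO cells, while its near copy UQCRHL averaged 2.62 ± 0.49 FPKM and 2.39 ± 0.66 FPKM in these groups (SD, n = 3 each). UQCRH shares 29.4% of its 50-base words with UQCRHL, so the level of the copy is uncertain.

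In complex IV, cytochrome c oxidase, none of the 13 tested subunits passed with block and GC correction, and the median log2 fold change was 0.03. At an unadjusted p under 0.05, 2 were higher and 2 lower, where 31.3% of all genes passed that level. NDUFA4, first assigned to complex I and now placed with complex IV, was compared with its paralogue NDUFA4L2, known as a hypoxia-inducible gene. NDUFA4L2 had 2.17, 2.11 and 5.16 FPKM in SCARNA13 ASO libraries, against 1.21, 1.42 and 2.70 FPKM in Control ASO libraries. It was higher in all 3 pairs, with SCARNA13 ASO replicates 1 and 2 inside the Control ASO range set by replicate 3. Its log2 fold change of 0.72 ± 0.15 (1.65-fold) did not pass with block and GC correction (adjusted p = 0.061) and passed in replicates 1 and 2 alone (0.54, adjusted p = 0.039) and with limma-voom and the block. NDUFA4 had 40.5, 43.4 and 39.7 FPKM in SCARNA13 ASO libraries, against 46.0, 46.0 and 46.5 FPKM in Control ASO libraries. In the deposited FPKM the groups did not overlap, a separation that depends on the library scaling. The log2 fold change of NDUFA4 was -0.19 ± 0.06 (adjusted p = 0.13). The difference between the responses of this pair was not tested.

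For the other complex IV subunits with tissue-specific paralogues, the widely expressed form was the one measured in these cells. COX4I1 averaged 82.4 ± 23.9 FPKM in SCARNA13 ASO cells and 82.5 ± 33.8 FPKM in Control ASO cells, while COX4I2 held 1 read in all. COX6A1 averaged 95.7 ± 23.9 FPKM in SCARNA13 ASO cells and 123 ± 57.2 FPKM in Control ASO cells, and the heart and muscle form COX6A2 was listed at 0 in every library. COX6B1 averaged 251 ± 106 FPKM in SCARNA13 ASO cells and 298 ± 179 FPKM in Control ASO cells (SD, n = 3 each), beside COX6B2, a testis form, at 0.107 and 0.144 FPKM in these groups. The same held for COX7B against COX7B2, with 2 reads, and for COX8A against COX8C, with 3 reads in all. COX8A was the most abundant member per length, with 495, 423 and 1220 FPKM in SCARNA13 ASO libraries and 533, 516 and 2004 FPKM in Control ASO libraries. Both replicate 3 libraries were far above the others of their group, and its log2 fold change was -0.30 ± 0.10 (adjusted p = 0.11). COX6A1 had the lowest log2 fold change of the subunits, -0.32 ± 0.13 (adjusted p = 0.17).

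An exception among the rare paralogues was COX7A1, the heart and muscle form of the subunit whose widely expressed form is COX7A2. COX7A1 had 0.513, 0.279 and 0.703 FPKM in SCARNA13 ASO libraries, against 0.196, 0.149 and 0.0759 FPKM in Control ASO libraries, on 33 and 11 reads. Every SCARNA13 ASO library was above every Control ASO library (exact two-sided permutation test, p = 0.1, the smallest possible), but the gene lay under the 1 FPKM floor and was not in the fits. COX7A2 averaged 77.4 ± 21.8 FPKM in SCARNA13 ASO cells and 73.6 ± 24.2 FPKM in Control ASO cells (SD, n = 3 each).

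Among the 6 tested assembly factors of complex IV, none passed and none had an unadjusted p under 0.05, and limma-voom with the block called none. COX17, a copper chaperone, had the highest log2 fold change of them, 0.19 ± 0.07 (adjusted p = 0.17), and COX14 the lowest, -0.16 ± 0.07 (adjusted p = 0.21). COX14 was also the most abundant, at 104 ± 53.8 FPKM in SCARNA13 ASO cells and 129 ± 90.3 FPKM in Control ASO cells (SD, n = 3 each).

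**Figure D3:**
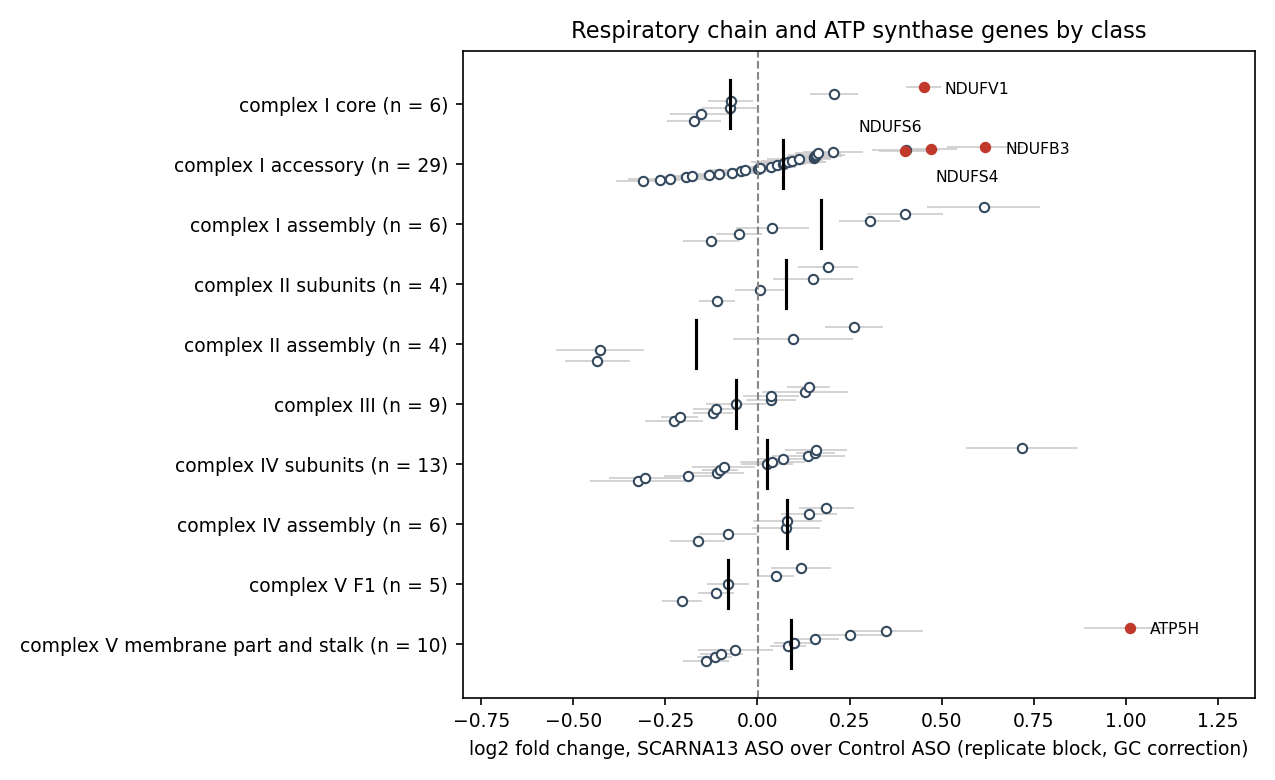
Log2 fold change of SCARNA13 ASO over Control ASO with replicate block and GC correction, for the 92 tested members by class (n tested in brackets). Points are members with their SE, filled where the adjusted p was under 0.05, black bars are class medians and the dashed line is the median of all tested genes. The class medians lie between -0.17 and 0.17, and ATP5H at 1.01 lies furthest from 0.

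In ATP synthase, ATP5H was set against 14 other tested subunits, none of which passed. The catalytic head had a median log2 fold change of -0.08 over 5 tested members, with none called. At an unadjusted p under 0.05, 1 was lower, against 15.5% of all genes lower. ATP5B, the catalytic beta subunit, had 439, 412 and 473 FPKM in SCARNA13 ASO libraries, against 460, 451 and 517 FPKM in Control ASO libraries, and drew more reads than any other member. It was lower in all 3 pairs, in overlapping groups, with a log2 fold change of -0.08 ± 0.06 (adjusted p = 0.38). ATP5A1, the alpha subunit, had the lowest value of the head, -0.20 ± 0.05 (adjusted p = 0.085), and ATP5E, the epsilon subunit, the highest, 0.12 ± 0.08 (adjusted p = 0.36).

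The 3 genes ATP5G1, ATP5G2 and ATP5G3 encode the same mature c subunit of the rotating ring. ATP5G1 averaged 116 ± 71.2 FPKM in SCARNA13 ASO cells and 111 ± 72.1 FPKM in Control ASO cells, with a log2 fold change of 0.10 ± 0.06 (adjusted p = 0.28). ATP5G2 averaged 169 ± 98.2 FPKM in SCARNA13 ASO cells and 190 ± 141 FPKM in Control ASO cells, with a log2 fold change of -0.06 ± 0.10 (adjusted p = 0.72). ATP5G3 averaged 37.8 ± 5.07 FPKM in SCARNA13 ASO cells and 41.2 ± 7.0 FPKM in Control ASO cells (SD, n = 3 each), with a log2 fold change of -0.14 ± 0.06 (adjusted p = 0.20). ATP5G1 and ATP5G2 were highest in replicate 3 of both groups, by more than their difference between groups. Of the ring, stalk and membrane subunits, ATP5G3 had the lowest log2 fold change and ATP5H the highest, around a median of 0.09 over 10 tested members. ATP5L, subunit g of the membrane part, averaged 61.3 ± 7.05 FPKM in SCARNA13 ASO cells and 64.3 ± 9.20 FPKM in Control ASO cells, and its near copy ATP5L2 held 4 reads in all.

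Levels per length spanned a wide range within each class. The members tested ran from a mean of 1.20 FPKM over the 6 libraries to 865 FPKM for COX8A, with a median of 30.1 FPKM. The subunits had a median of 38.6 FPKM and the assembly factors a median of 6.20 FPKM. Core subunits of complex I differed widely among themselves although each is present once in the complex, with NDUFV2 at only 0.283 FPKM in SCARNA13 ASO cells and 0.327 FPKM in Control ASO cells. NDUFV2 shares 74.0% of the 50-base words of its longest coding transcript with other annotated genes, mainly an overlapping gene listed at 0.

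**Figure D4:**
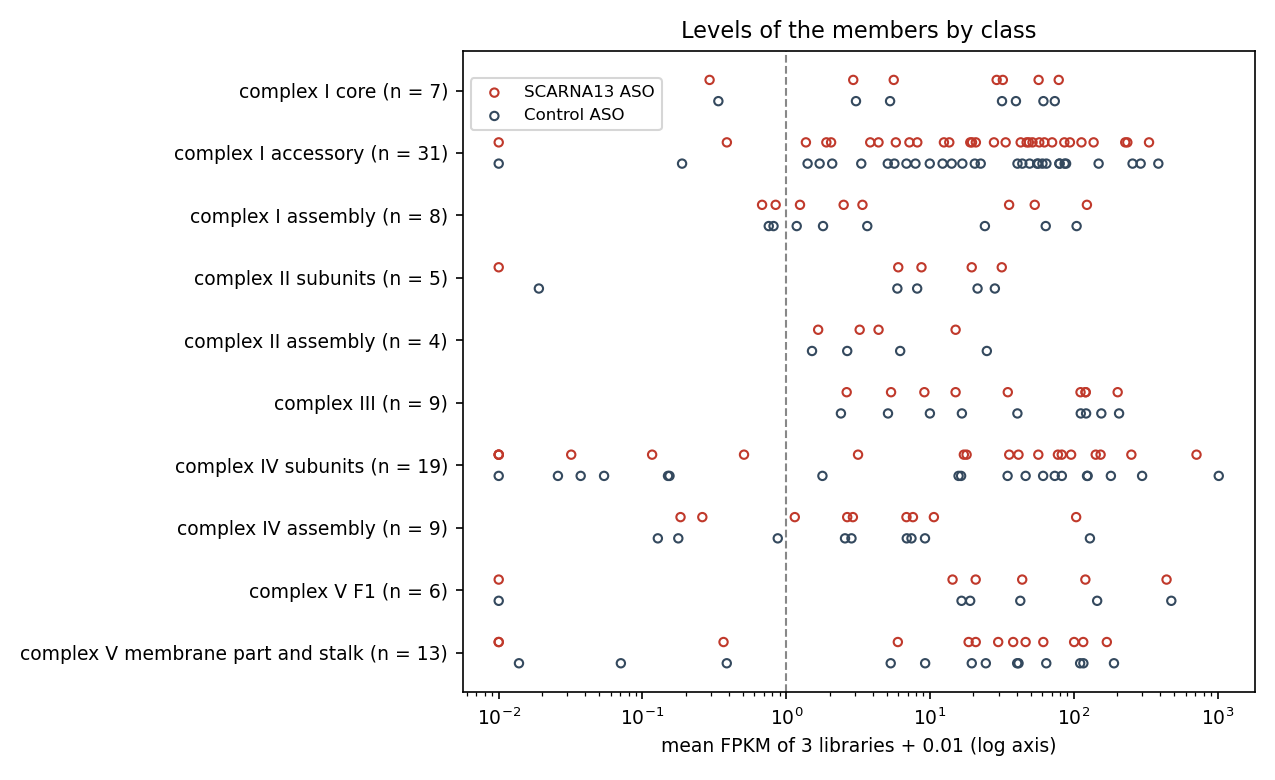
Mean FPKM of 3 libraries, plus 0.01 on a log axis, of all 111 members by class, with SCARNA13 ASO above Control ASO in each row. The dashed line marks 1 FPKM, the floor for testing was set on the mean of all 6 libraries, and COX8A at 713 FPKM in SCARNA13 ASO cells and 1018 FPKM in Control ASO cells is the highest point.

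The listed level of a member went with how much of its sequence other genes share. Of the 109 members with a coding transcript in GENCODE 29, 21 shared at least 30% of their 50-base words with another gene, and 13 of these were tested, at a median of 5.28 FPKM over the 21. Another 54 shared under 5%, 47 of them were tested, and their median was 27.0 FPKM. Among the members under 1 FPKM, NDUFA7 shared 76.8%, COX20 83.0% and COX16 34.4%. The readthrough genes NDUFC2-KCTD14 and ATP5J2-PTCD1 held 0 and 1 reads. No source used here says how reads that match several genes were assigned, so the levels of these members are uncertain. The listed gene length equalled the union of the exons for 107 of 111 members. It was a median of 1.62 times the longest coding transcript and up to 5.72 times for NDUFS8, which lowers FPKM by as much. Ratios of the deposited FPKM between groups stay as they are. The fits on FPKM add a pseudocount before taking logs, so a lower FPKM shrinks their fold changes, most in low genes. It can also leave a gene under the 1 FPKM floor.

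**Figure D5:**
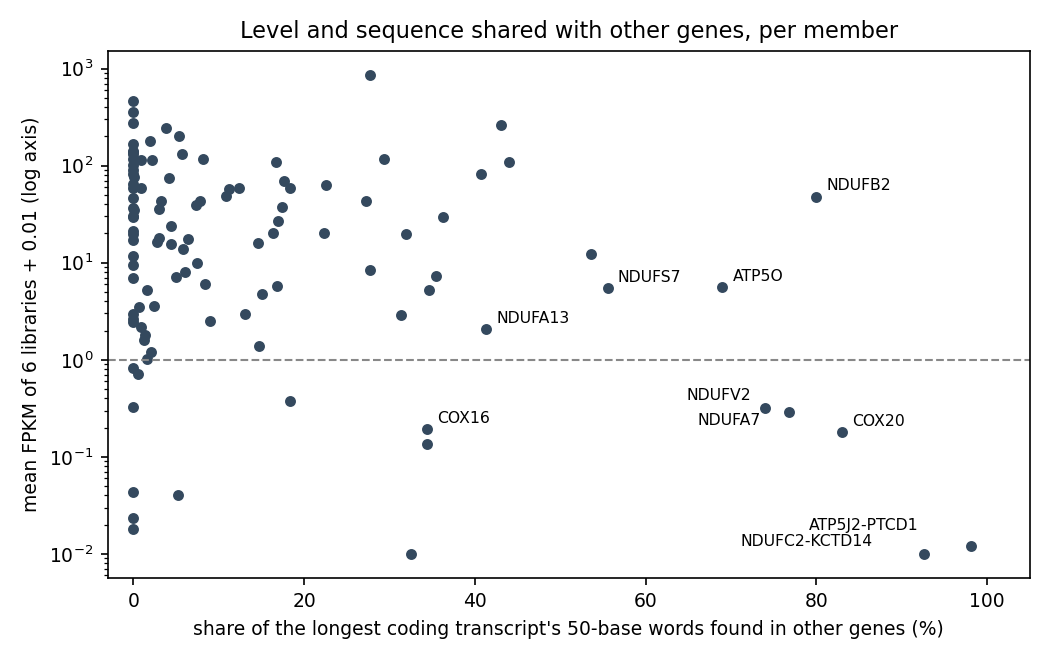
Mean FPKM over the 6 libraries, plus 0.01 on a log axis, against the percent of 50-base words of the longest coding transcript that occur in other genes, for 109 members. The dashed line marks 1 FPKM, and the members sharing most, among them COX20 at 83.0%, NDUFA7 at 76.8% and NDUFV2 at 74.0%, lie below it, with NDUFB2 as an exception.

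The rest of the pathway was read from 4 lists. Of the 13 mitochondrially encoded subunits, none passed with block and GC correction. Limma-voom with the block called 4 as falls, against 5.19% of all genes, and replicates 1 and 2 alone called 3 as falls, against 4.59%. With block and GC correction 5 were lower and 0 higher at an unadjusted p under 0.05, against 15.5% of all genes lower and 15.8% higher. Their median log2 fold change was -0.33, and 12 of 13 were lower in 3 of 3 pairs, against 29.6% of all tested genes. MT-ND2, a complex I core subunit, had 1934, 1782 and 2023 FPKM in SCARNA13 ASO libraries, against 2680, 2390 and 3416 FPKM in Control ASO libraries. In the deposited FPKM the groups did not overlap, a separation that depends on the library scaling. Of all tested genes, 4.44% were lower without overlap. The log2 fold change of MT-ND2, -0.56 ± 0.12, did not pass (adjusted p = 0.059). MT-ATP8 was the only one above 0, at 0.06 ± 0.22 (adjusted p = 0.86). Together these 13 genes took 5.62%, 5.26% and 3.33% of reads in SCARNA13 ASO libraries, against 6.44%, 6.02% and 4.10% in Control ASO libraries, each below its same-numbered partner.

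Of 39 tested subunits and assembly factors whose symbols fall outside the rule, such as cytochrome c1 and SURF1, none passed with block and GC correction. Their median was 0.03. In that fit 10 were higher and 5 lower at an unadjusted p under 0.05, against 15.8% of all genes higher and 15.5% lower. Limma-voom with the block called 1 as a fall, against 5.19% of all genes. In replicates 1 and 2 alone, SURF1 passed as a rise (0.28, adjusted p = 0.030). USMG5, a membrane subunit of ATP synthase, was at 0.32 ± 0.11 (adjusted p = 0.13) and HIGD2A, a respiratory complex assembly factor, at -0.32 ± 0.10 (adjusted p = 0.11). Of 16 tested genes of electron entry and coenzyme Q synthesis, COQ8B rose with block and GC correction and none fell. Over all genes 3.06% rose and 2.15% fell in that fit. COQ8B, an atypical kinase-like protein of coenzyme Q synthesis, had 7.56, 7.49 and 18.2 FPKM in SCARNA13 ASO libraries, against 5.60, 5.88 and 16.8 FPKM in Control ASO libraries. It was higher in every pair, both replicate 3 libraries were high, and the log2 fold change was 0.35 ± 0.06 (limma adjusted p = 0.046). COQ8B also passed in replicates 1 and 2 alone (0.36, adjusted p = 0.028). It did not pass without a block (0.28 ± 0.54) or with limma-voom and the block (0.30, adjusted p = 0.063). ETFA, which carries electrons from fatty acid oxidation, was at 0.39 ± 0.08 (adjusted p = 0.053). With limma-voom and the block, ETFA was the 1 gene of this list that passed (0.40, adjusted p = 0.036), against 10.1% of all genes. COQ3, a methyltransferase of coenzyme Q synthesis, was at -0.30 ± 0.20 (adjusted p = 0.34). Of 9 tested regulators, among them NRF1, GABPA, YY1 and TFAM, none passed, and limma-voom with the block called none. At an unadjusted p under 0.05, 4 were lower and 0 higher, against 15.5% of all genes lower and 15.8% higher. Their median was -0.15, running from -0.21 ± 0.05 for PPRC1, a coactivator related to PGC-1 (adjusted p = 0.072), to 0.11 ± 0.08 for TFB1M, a mitochondrial ribosomal RNA methyltransferase (adjusted p = 0.42). PPARGC1A, which encodes PGC-1 alpha itself, was at or under 0.00678 FPKM in every library.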

How the data were processed

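RNA from HCCLM3 cells was sequenced in 6 libraries, 3 with SCARNA13 ASO and 3 with Control ASO, with RNA taken up in Trizol and libraries made by TruSeq chemistry, per the labels' protocols. The authors deposited FPKM values, 1 for each gene in each library. The submitters' processing notes list TopHat2 2.0.9, Bowtie2 2.0.6 and hg19 but not what each was used for. The counting tool and annotation are not stated in the labels or file headers. Gene positions are those of GRCh38, because start and end match GENCODE 29 for 56636 of the 58039 shared identifiers (97.6%). Whole reads were recovered from the deposited FPKM values (100% of values within 0.01 reads of a whole number) and came to between 20457474 and 25173559 per library. The library sizes that the FPKM values imply differ from these totals, at 0.76 times the total in SCARNA13 ASO replicate 3 and 0.63 times in Control ASO replicate 3, against between 1.21 and 1.24 times in the other libraries. How precise a value is follows from its reads, which for tested members ran from 326 (SDHAF4) to 148098 (ATP5B) over the 6 libraries.

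Groups and replicate numbers came from the titles. The fit without a block was limma-trend (limma 3.58.1, R 4.3.3) on log2(FPKM + 0.5) over genes averaging 1 FPKM or more, two-sided, with Benjamini-Hochberg adjustment over all genes tested and a threshold of 0.05. Fold changes are on that scale, which understates changes of low genes. Deviations from the group means correlated at 0.84, 0.78 and 0.91 between libraries of the same number, so the numbers, which come from the titles, were taken as pairs. Crossed pairs of replicates 1 and 2 correlated at 0.81 too, so only replicate 3 was set apart. The match of replicates 1 and 2 between groups thus rests on the titles alone. The fit with a replicate block and GC correction subtracted a loess trend (span 0.5) on the GC content of the longest GENCODE 29 transcript per library, which left 10104 genes. Fits were tested on simulated data. Other pseudocounts, no filter, scaling to total reads, limma-voom, and leaving out libraries were tried. Named members were those that passed in either fit, the most abundant and the highest and lowest by log2 fold change of each class, tissue-specific paralogues and the SDH subunits, and not all of these are printed with every value. The members, classes and lists were chosen with earlier results of these data known. Promoters are RefSeq, GRCh38.p14. No per-sample column was left unused.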

Additional observations from a re-analysis of the deposited data

How the results depend on the processing

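Leaving single libraries out of the fit without a block called no gene and no member, and the members' median log2 fold change then lay between -0.099 and 0.063. The number of called genes (members) was 526 (5) with the replicate block and GC correction. With both it was 14 (1) without replicate 1, 0 (0) without replicate 2 and 763 (4) without replicate 3. It was 922 (8) in replicates 1 and 2 only, 1023 (10) with limma-voom and the block, and 243 (2) with the block and scaling to total reads, the last 2 added after seeing the data. The fit without a block called 0 (0), and the cause was not tested. The members' median was 0.11 scaled to total reads, with or without the block, beside 0.057 over all genes, and -0.0070 with block and GC correction without replicate 2.

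Of 741 alternative log2 fold changes for 39 named members, 651 kept their direction and their side of the threshold, 28 passed it in the same direction and 62 had the other sign. These 62 belong to 26 members. The other 13 kept their sign, among them ATP5H, NDUFB3, NDUFS4, NDUFS6, NDUFAF2, NDUFA4L2, SDHAF2 and NDUFB9. In replicates 1 and 2 only, the sign turned for NDUFB7 (0.062), SDHC (-0.013), SDHD (-0.0066), UQCRHL (-0.028), COX7B (-0.011) and ATP5G2 (0.053). Scaled to total reads, with or without the block, it turned for NDUFB7 (0.019), ATP5G2 (0.029) and ATP5L (0.035). With block and GC correction it turned for NDUFB7 (0.0022), without replicate 2 in that fit for NDUFB7 (0.060), SDHC (-0.037), UQCRQ (-0.043), COX4I1 (-0.062) and COX7A2 (-0.0041), and without replicate 3 for NDUFB7 (0.043), UQCRHL (-0.0039) and ATP5G2 (0.078). Leaving 1 library out of the fit without a block gave ranges of -0.63 to 0.61 for NDUFB7, -0.25 to 0.044 for NDUFAF4, -0.10 to 0.55 for NDUFAF8, -0.48 to 0.15 for NDUFS3, -0.073 to 0.89 for NDUFV1, -0.87 to 0.13 for SDHAF1, -0.080 to 0.56 for SDHAF3, -0.29 to 0.032 for SDHA, -0.024 to 0.29 for SDHB, -0.0092 to 0.064 for SDHC, -0.30 to 0.47 for SDHD, -0.027 to 0.20 for UQCRH, -0.063 to 0.28 for UQCRHL, -0.31 to 0.42 for UQCRQ, -0.62 to 0.31 for COX14, -0.19 to 0.35 for COX4I1, -0.50 to 0.054 for COX6A1, -0.49 to 0.29 for COX6B1, -0.13 to 0.34 for COX7A2, -0.11 to 0.30 for COX7B, -0.84 to 0.28 for COX8A, -0.064 to 0.28 for ATP5E, -0.37 to 0.59 for ATP5G1, -0.51 to 0.49 for ATP5G2, -0.22 to 0.017 for ATP5G3 and -0.16 to 0.042 for ATP5L. Members under 1 FPKM, with 0 to 1063 reads each, were not tested.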
